A study of Mus musculus with 11 samples.

Results

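The genes described here encode the chaperones and protein disulfide isomerases (PDIs) of mouse colon. They were chosen by symbol: the Hspa, Hspb, Hspd, Hspe, Hsph and Hsp90 genes, the Dnaja, Dnajb and Dnajc genes, Cct2 to Cct8, Pdia2 to Pdia6, Hyou1, Calr and Canx, each with at least 10 reads in at least 5 of the 11 mice. Of 99 rows of the count table with such a symbol, 88 met this minimum, and all 88 were among the 19863 genes tested of 43346 in the table. The 11 rows that did not were Dnajb8, Dnajc5b, Dnajc5g, Hspb3 and 7 pseudogenes. Each gene was assigned to a compartment from textbook knowledge of its protein, which gave 21 genes of the endoplasmic reticulum (ER), 9 of mitochondria, 47 of the cytosol and nucleus, 3 of vesicles and endosomes and 8 with no assignment. Dnajc19 stands in the table under 2 gene IDs, ENSMUSG00000027679 and ENSMUSG00000103988, so that the 88 rows hold 87 symbols.

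Colonic polyA RNA was sequenced from 5 germ-free and 6 humanized mice. All were male Swiss Webster mice, aged 8 to 10 weeks when the tissue was taken. The humanized mice were raised germ-free and, at an age of 4 to 5 weeks, gavaged with 300 μL of stool suspension from 1 healthy human donor, which was followed by 4 to 5 weeks of adaptation, so they represent 1 donor. The tissue was colon, with no region or layer given, and the sources give no further treatment in either group.

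Chaperones bind proteins that are unfolded or not yet folded and keep them from aggregating. Hsp70 proteins do this in cycles of ATP hydrolysis that are driven by J proteins and by nucleotide exchange factors, Hsp90 proteins act late on nearly folded clients, chaperonins enclose a client in a chamber, and small heat shock proteins hold clients without using ATP. Each compartment has its own set. In the ER, BiP (Hspa5) and Grp94 (Hsp90b1) work beside calnexin and calreticulin, which bind the sugars of new glycoproteins, and beside the PDIs, which form and reshuffle disulfide bonds. Secretory cells such as plasma cells and goblet cells are known for a large ER, and smooth muscle is known for its small heat shock proteins.

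A promoter sequence known from ER chaperone genes was looked for in all compartments. The ER stress element, to which the transcription factors ATF6 and NF-Y are known to bind, was searched as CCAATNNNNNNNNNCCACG on both strands in the window from 250 bases before to 50 bases after each transcription start, in RefSeq promoters of GRCm38.p6. Of 27025 mouse genes with a window, 37 (0.137%) held a match. Of the 87 symbols, 70 had a window. The match was found in 6 of 18 ER genes (33.3%) and in 0 of 40 genes of the cytosol and nucleus, and the other 12 ER genes with a window held none. The stretches around it are shown so that the 6 genes can be compared. Of these, 4 were called differentially expressed (Hspa5, Hsp90b1, Calr and Canx; 19.3% of all tested genes were called), and Canx was the only one of them still called with total counts or with scaling to epithelial markers. The called ER genes Pdia4, Dnajb9 and Dnajb11 held no match. Capitals mark the fixed letters of the element, which reads CGTGG and ATTGG where it lies on the opposite strand. The stretch of Hspa5 lies at chr2:34772013-34772055 on the plus strand and that of Canx at chr11:50325788-50325830 on the minus strand. Calr lies at chr8:84847063-84847105 (minus), Hsp90b1 at chr10:86705521-86705668 (minus), Dnajc3 at chr14:118937815-118937857 (plus) and Pdia6 at chr12:17266479-17266521 (plus).
Hspa5: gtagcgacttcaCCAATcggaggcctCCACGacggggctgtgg
Hsp90b1: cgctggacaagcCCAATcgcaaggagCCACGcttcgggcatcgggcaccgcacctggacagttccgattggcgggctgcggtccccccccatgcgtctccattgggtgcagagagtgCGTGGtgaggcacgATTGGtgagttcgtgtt
Calr: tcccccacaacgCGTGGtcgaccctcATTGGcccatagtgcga
Canx: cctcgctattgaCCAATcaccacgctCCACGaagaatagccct
Dnajc3: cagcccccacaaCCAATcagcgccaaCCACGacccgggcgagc
Pdia6: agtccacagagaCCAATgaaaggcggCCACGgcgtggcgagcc

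Counted from the RefSeq starts, which can differ from the gene positions of the deposited table given below (that of Hspa5 begins upstream of the element), the element began 65 bases before the start of Hspa5, 145 before that of Canx and 162 before that of Calr. Hsp90b1 held it at 2 places, 212 and 107 bases before its start. All 4 ER Hsp70, Hsp90 and lectin chaperone genes with a window held a match, and the windows of Hyou1 and Hspa13 were not analysed here. A match is a description of the sequence, and binding was not measured.

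The heat shock element, the binding sequence of heat shock factors, was searched as GAANNTTCNNGAA or TTCNNGAANNTTC. It was found in 179 of 27025 genes (0.662%) and in 4 of the 70 chaperone and PDI genes with a window, namely Hspd1, Hspe1, Dnajb6 and Hsph1. Hspd1 and Hspe1, which encode the Hsp60 chaperonin of mitochondria and its Hsp10 lid, lie head to head and share 1 promoter, at chr1:55088047-55088088. It is shown on the plus strand, as read towards Hspe1, with the repeated blocks in capitals, which form 2 overlapping matches.
Hspe1: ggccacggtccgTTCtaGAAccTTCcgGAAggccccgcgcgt

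Only 5 of 8 mitochondrial genes had a window, so no share is given for this compartment.

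Reads on genes numbered 49097005 to 64148538 per germ-free mouse (median 56718640) and 39125290 to 54219854 per humanized mouse. Each LFC is the log2 ratio of humanized to germ-free expression, so a value above 0 means higher in humanized mice, with the FDR of edgeR's exact test over all 19863 genes and the SE of edgeR's quasi-likelihood fit, and a gene is called differentially expressed at FDR below 0.01. Expression levels are RPKM, that is, reads scaled to gene length and TMM-normalized library size, which allows levels of different genes to be compared. They are given as mean ± SD (n = 5 germ-free mice, n = 6 humanized mice). Positions come from the deposited table (build mm10). All 11 epithelial markers were detected in every mouse. All 11 had an LFC above 0 with TMM (median 0.21), and 2 were called higher (18.2%, near the 19.3% of all tested genes). Their summed RPKM was 4429 to 6032 in germ-free and 5087 to 7063 in humanized mice. Scaling to epithelial markers takes these same 11 genes as its reference, so their own shift is taken out there. The 12 smooth muscle markers were all lower in humanized mice (summed RPKM 427 to 1196 germ-free, 63.6 to 424 humanized), 9 of 10 plasma cell markers were higher (249 to 768 against 1033 to 5903), with Tnfrsf17 at 0 in at least 1 germ-free mouse, and 6 of 10 goblet cell markers were higher (4834 to 5617 against 6513 to 8705). Humanized mouse 5 stood apart, with the lowest summed level of the smooth muscle, fibroblast, endothelial, neuron and glia, macrophage and plasma cell markers among the humanized mice. The mice are separate animals, and no sequencing batch is named in the labels or methods.

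Of the 88 genes, 21 were higher and 8 lower in humanized mice. This was 33.0% of them, where, as above, 19.3% of all tested genes were called, 9.2% higher and 10.1% lower. The groups did not overlap in RPKM for 22 of the 88 genes, 14 higher and 8 lower (of all tested genes 18.4% did not overlap, 8.67% higher and 9.73% lower). The higher genes were abundant and changed little: their LFC lay between 0.23 and 0.67 and 20 of the 21 had a mean above 10 RPKM. The lower genes were rare and changed more: their LFC lay between −2.00 and −0.42 and none had a mean above 6.01 RPKM. The median LFC of the 88 genes was 0.13, against 0.01 for all tested genes. In bulk tissue, fewer cells of a type and less RNA per cell cannot be told apart.

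Most calls of higher genes depended on how the libraries were scaled. All 8 lower genes were called under each of 5 scalings (TMM, RLE, upper quartile, total counts, and 11 epithelial markers), but 3 lower genes were called without germ-free mouse 3 or 4 or humanized mouse 1, 3 by the quasi-likelihood test, and 13 higher genes without germ-free mouse 1 or humanized mouse 1. Of the 21 higher genes, Canx was the only one called under all 5. With total counts, 3 genes were higher (Canx, Hspa8 and Dnajb9) and 12 lower, and the median LFC of all tested genes moved to −0.18. Scaled to the epithelial markers, 1 was higher and 11 lower, and that median was −0.23. Relative to the median of all genes, the median LFC of ER genes was 0.24 with TMM, 0.23 with total counts and 0.24 with the epithelial markers. In the same way mitochondrial genes stood 0.27, 0.26 and 0.27 above it and genes of the cytosol and nucleus 0.04, 0.04 and 0.05. A scaling moves all genes by nearly the same amount, so these differences change little whatever the data and test nothing. By edgeR's quasi-likelihood test, 14 of the 88 genes were higher and 3 lower, and by DESeq2 24 were higher and 7 lower.

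**Figure D1:**
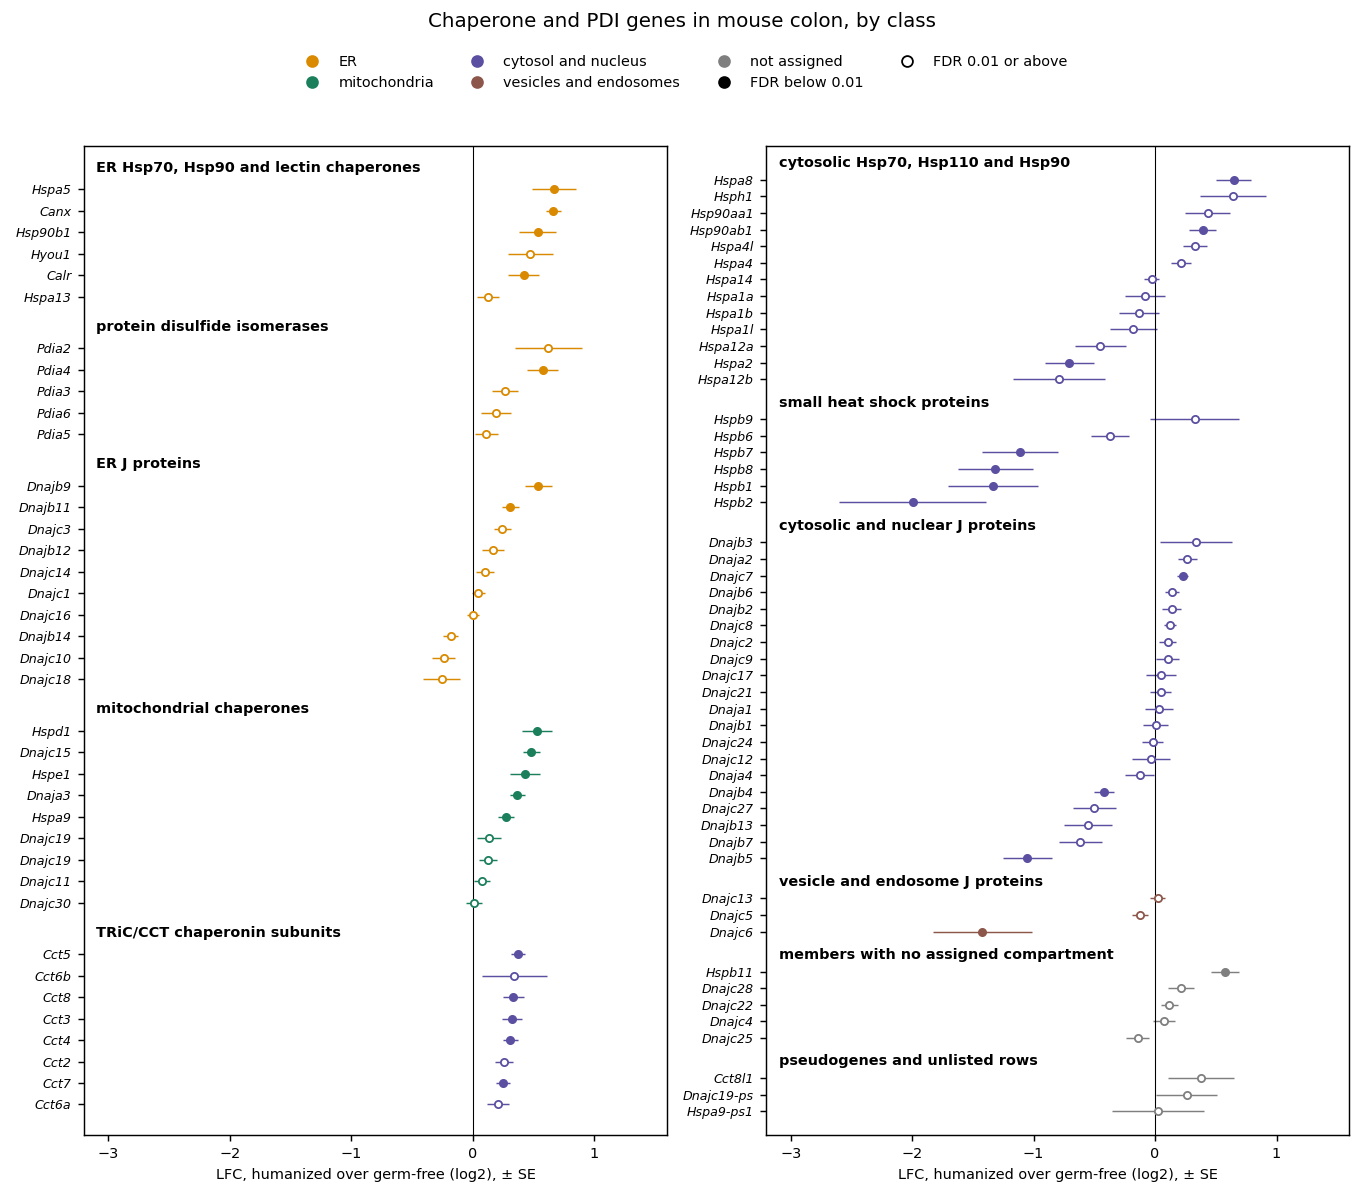
LFC of humanized over germ-free mice (x axis, log2, ± SE of the quasi-likelihood fit, TMM scaling) of the 88 genes, grouped by class and coloured by compartment, with filled points at FDR below 0.01. ER, mitochondrial and Cct genes at FDR below 0.01 all lie right of 0 with this scaling, between 0.25 and 0.67 (of them Canx and Dnajb9 were still called with total counts, and Canx with epithelial scaling), and 4 small heat shock protein genes lie between −2.00 and −1.11.

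**Figure D2:**
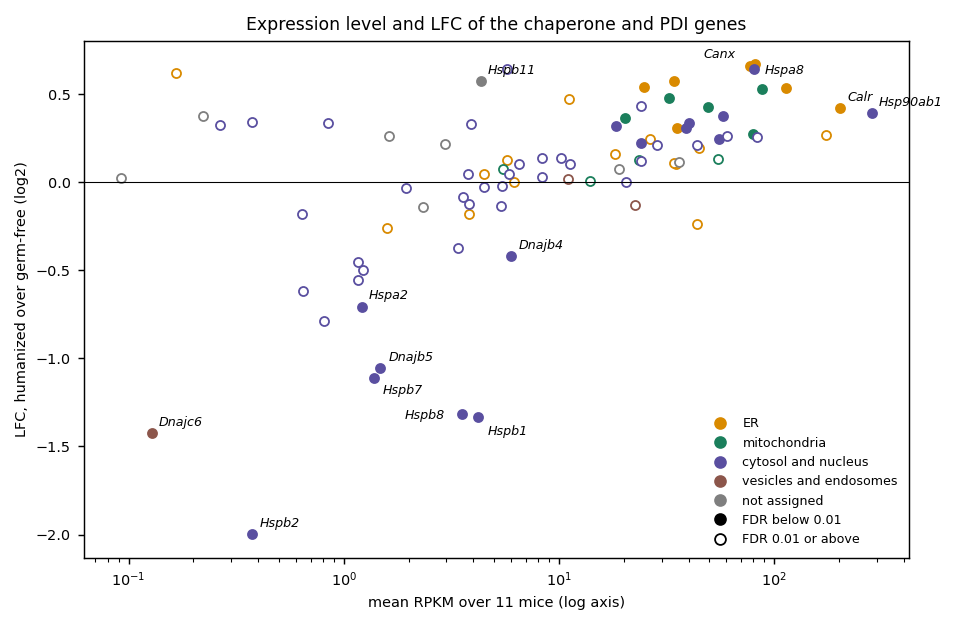
Mean RPKM over 11 mice (x axis, log scale) and LFC of humanized over germ-free mice (y axis, log2, TMM scaling) of the 88 genes, coloured by compartment, filled at FDR below 0.01. The 8 lower genes lie at or below 6.01 RPKM, and the higher genes lie between 4.33 and 284 RPKM with LFC of at most 0.67.

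ER genes were higher or not called, with 7 of 21 higher and 0 lower. Their median LFC was 0.24, and 18 of 21 had an LFC above 0 (51.2% of all tested genes). The class of Hsp70, Hsp90 and lectin chaperones had 4 of 6 genes higher (median LFC 0.50), the PDIs 1 of 5 (0.27) and the ER J proteins 2 of 10 (0.07). For the PDIs and the ER J proteins the called share was 20% each, near the 19.3% of all tested genes. Their counts do not set these classes apart. With the 6 J proteins of the ER membrane left out, the median LFC of the other 15 was 0.42. With total counts 2 ER genes were higher and 2 lower, and with epithelial scaling 1 was higher and 2 lower. Leaving out germ-free mouse 1 left 4 higher, and leaving out humanized mouse 5 gave 9.

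Hspa5 (chr2:34771970-34777547), which encodes BiP, the Hsp70 of the ER lumen, had the highest LFC of the 88 genes. It measured 53.3, 61.2, 62.5, 64.6 and 64.9 RPKM in the germ-free mice, and 63.8, 98.8 and 128 RPKM as the lowest, median and highest of the humanized mice. Humanized mice 1, 2 and 3 lay at 118 RPKM or above, mice 4 and 6 at 72.2 and 79.7, and mouse 5 within the germ-free range. The LFC was 0.67 ± 0.18 (SE; FDR = 0.00194, edgeR's exact test), from 61.3 ± 4.74 to 97.6 ± 28.8 RPKM. The FDR was 0.0128 without germ-free mouse 1, 0.0325 with total counts and 0.0894 with epithelial scaling.

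Canx (chr11:50293961-50325673) encodes calnexin, the membrane-bound lectin chaperone. Germ-free mice had 58.1, 59.7, 56.9, 58.9 and 60.5 RPKM, and humanized mice had a lowest value of 81.8, a median of 95.5 and a highest value of 101 RPKM. All 6 humanized mice lay above all germ-free mice, mouse 5 included, and within each group the values lay close together. The LFC was 0.66 ± 0.06 (FDR = 5.53e-16), from 58.8 ± 1.40 to 93.2 ± 7.20 RPKM, a fold of 1.58. It kept its call in the 21 other fits (other tests, scalings and filters, 1 mouse left out, and mice 1 to 5 with and without the replicate block), with an LFC between 0.43 and 0.70, and its LFC lay under the alternative threshold of an absolute LFC above 1.

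Calr encodes calreticulin, the lumenal relative of calnexin, and was the most abundant of the 21 ER genes chosen by symbol. It had 158, 158, 185, 166 and 191 RPKM in germ-free mice, and 176, 236 and 272 RPKM as the lowest, median and highest in humanized mice. Humanized mice 1, 2 and 3 were again the highest, at 267 to 272 RPKM, and mice 4 and 5 lay within the germ-free range. The LFC was 0.42 ± 0.13 (FDR = 0.00890), and the call was lost without any one of 8 of the 11 mice. Hsp90b1 (Grp94) rose from 91.5 ± 7.27 to 132 ± 32.0 RPKM (LFC 0.53 ± 0.15, FDR = 0.00418) and lost its call in 6 of the 11 fits with 1 mouse left out. Hyou1 (Grp170), an exchange factor of BiP, had 9.23 ± 0.491 and 12.8 ± 4.08 RPKM (FDR = 0.0450).

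Pdia4, the isomerase ERp72, had the highest LFC of the abundant PDIs. Its germ-free values were 25.3, 25.8, 28.0, 28.6 and 28.1 RPKM, and humanized mice had 28.3 as the lowest, 40.5 as the median and 49.4 as the highest. Only humanized mouse 5 overlapped the germ-free mice. The LFC was 0.58 ± 0.13 (FDR = 0.000193), and the call held without any one mouse. Pdia3 (ERp57), which works with calnexin and calreticulin and was the most abundant of the 5 Pdia genes, had 157 ± 6.93 RPKM in germ-free and 188 ± 32.0 in humanized mice and was not called (LFC 0.27 ± 0.11, FDR = 0.0645). Pdia6 had 41.6 ± 3.06 and 47.5 ± 9.58 RPKM (FDR = 0.301), and Pdia5 was not called either (FDR = 0.457). Pdia2, known from pancreas, was near the limit of detection, with 9 to 23 reads per mouse.

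Dnajb9 (ERdj4), a J protein of BiP, had 18.9, 24.3, 17.5, 20.2 and 19.0 RPKM in germ-free mice. The humanized mice ranged from 24.6 to 37.3 with a median of 28.0 RPKM, all above the germ-free mice, and here mouse 5 was the highest. The LFC was 0.54 ± 0.11 (FDR = 0.000161), and Dnajb9 was also called with total counts (LFC 0.35, FDR = 0.00801). Dnajb11 (ERdj3), which works with BiP on clients in the lumen, rose from 31.3 ± 1.39 to 38.9 ± 3.52 RPKM (LFC 0.31 ± 0.07, FDR = 0.00111). Dnajc3 (p58IPK) did not overlap between the groups, at 24.1 ± 0.264 and 28.5 ± 2.99 RPKM, but was not called (FDR = 0.0146). Dnajc10 (ERdj5), which carries thioredoxin domains and was the most abundant ER J protein, had 47.6 ± 3.87 and 40.4 ± 5.47 RPKM (LFC −0.24 ± 0.09, FDR = 0.0675). It was called lower with total counts (LFC −0.42, FDR = 0.00115) and with epithelial scaling (−0.46, FDR = 0.00834).

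The ER chaperones varied between humanized mice far more than between germ-free mice. All 21 ER genes had a larger coefficient of variation in the humanized group, as did 80.2% of all tested genes, and the median over the 21 was 5.98% in germ-free and 14.7% in humanized mice. Over the 6 Hsp70, Hsp90 and lectin chaperones, the median log2 deviation from the germ-free mean was 0.72, 0.71 and 0.71 in humanized mice 1, 2 and 3, and 0.10, 0.03 and 0.32 in mice 4, 5 and 6. For the PDIs these medians were 0.48, 0.40, 0.41, 0.09, −0.06 and 0.13. For the ER J proteins they lay between −0.00 and 0.18, and mouse 5 was the highest. The summed plasma cell markers of humanized mice 1 to 6 were 2677, 5903, 5399, 4318, 1033 and 2451 RPKM, and the summed goblet cell markers were 8705, 6938, 7019, 6513, 7906 and 8148 RPKM. Their part in the ER values was not tested.

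**Figure D3:**
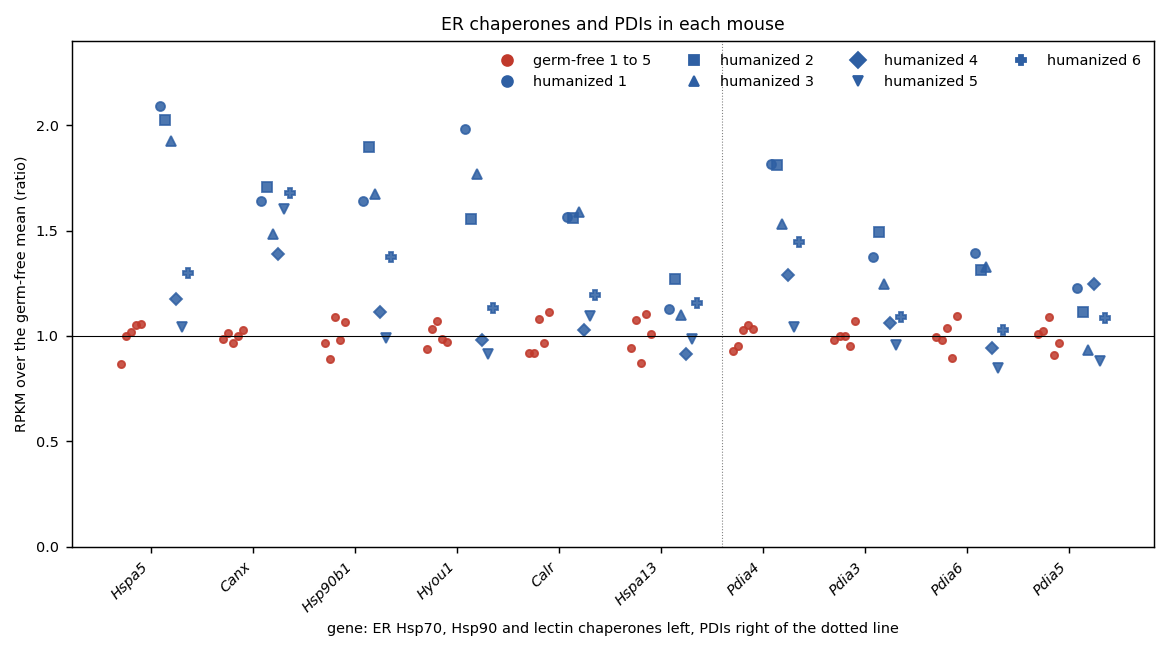
RPKM of each mouse divided by the germ-free mean of the gene (y axis, ratio, TMM scaling) for 6 ER Hsp70, Hsp90 and lectin chaperones and 4 PDIs (x axis, without Pdia2), with germ-free mice in red and each humanized mouse in blue with its own symbol. Humanized mice 1, 2 and 3 reach 2.09, 2.02 and 1.92 for Hspa5 while mouse 5 is at 1.04, and for Canx all 6 humanized mice lie above the germ-free mice.

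Mitochondrial genes had 5 of 9 higher and 0 lower, with a median LFC of 0.28, and all 9 had an LFC above 0 with TMM scaling. With total counts and with epithelial scaling 0 of 9 were called in either direction by the exact test, and the median LFC was 0.088 and 0.041. The called genes were Hspd1 and Hspe1 of the chaperonin, the Hsp70 gene Hspa9 and the J protein genes Dnaja3 and Dnajc15, and both rows of Dnajc19, a J protein of the import motor, were not called (LFC 0.14 and 0.13). Leaving out 1 mouse gave between 3 and 5 higher genes, 3 without germ-free mouse 1, 3 or 4 or humanized mouse 1 or 2.

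Hspd1 (chr1:55077835-55088243), the Hsp60 chaperonin, was the most abundant of them. Germ-free mice had 59.5, 72.5, 70.5, 71.8 and 79.4 RPKM, and humanized mice had 73.6, 106 and 121 RPKM as lowest, median and highest. The overlap came from humanized mouse 5 alone, and the other 5 humanized mice lay at 89.6 RPKM or above. The LFC was 0.53 ± 0.12 (FDR = 0.000553), with an FDR of 0.0340 under total counts. Hspe1 (chr1:55088132-55091307), which encodes the lid of the same chaperonin and shares its promoter, rose from 41.4 ± 4.12 to 55.8 ± 9.98 RPKM (LFC 0.43 ± 0.12, FDR = 0.00504) but kept its call in 3 of the 11 fits with 1 mouse left out. For both genes humanized mice 4 and 5 were the lowest of their group.

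Dnajc15, a J protein of the import motor, rose from 26.7 ± 2.30 to 37.2 ± 1.99 RPKM (LFC 0.48 ± 0.07, FDR = 5.98e-06) without overlap. Dnaja3 (Tid1), a J protein of the matrix, rose from 17.6 ± 1.23 to 22.6 ± 1.48 RPKM (LFC 0.37 ± 0.06, FDR = 3.39e-05), also without overlap. Hspa9 (mortalin), the matrix Hsp70, rose from 71.2 ± 3.91 to 86.2 ± 6.49 RPKM (LFC 0.28 ± 0.07, FDR = 0.00289). These 3 genes were not called with total counts or epithelial scaling, where the lowest FDR among them was 0.0142. The median coefficient of variation of the 9 mitochondrial genes was 8.42% in germ-free and 7.68% in humanized mice, and it was larger in humanized mice for 6 of the 9, among them Hspd1 (10.2% and 18.1%) and Hspe1 (9.95% and 17.9%).

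The TRiC/CCT chaperonin is the ring of the cytosol that folds actin and tubulin. Of the 8 Cct subunit genes chosen by symbol, 5 were higher and 0 lower, with a median LFC of 0.32 and all 8 above 0 with TMM scaling. They include the testis form Cct6b and leave out Tcp1, which is given below. With total counts or epithelial scaling, 0 of the 8 were called in either direction. Cct5 had the lowest FDR, from 49.7 ± 2.29 to 64.5 ± 3.89 RPKM (LFC 0.37 ± 0.06, FDR = 4.24e-06). Cct8 (LFC 0.33 ± 0.08), Cct3 (0.32 ± 0.08), Cct4 (0.31 ± 0.06) and Cct7 (0.25 ± 0.06) were also higher. Cct2, the most abundant of these 8, had 75.2 ± 4.60 and 90.0 ± 7.99 RPKM and missed the threshold (LFC 0.26 ± 0.07, FDR = 0.0104). The LFC of the 8 subunits lay between 0.21 and 0.37, with Cct6a (FDR = 0.109) and its testis form Cct6b (FDR = 0.432) not called. Tcp1, the subunit alpha gene, had an LFC of 0.23 ± 0.07 (FDR = 0.0169), and of 10 TRiC partners (Tcp1, the prefoldins and phosducin-like cofactors) 0 were called by the exact test, with 4 at an unadjusted p below 0.05, a share near the 37.4% of all tested genes. Without germ-free mouse 1 or 3 or humanized mouse 1 only 2 of the 8 subunits were called, and without humanized mouse 3 or 5 there were 6.

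The cytosolic Hsp70, Hsp110 and Hsp90 genes had 2 of 13 higher and 1 lower, with a median LFC of −0.03. The called share, 23.1%, was near the 19.3% of all tested genes, so the count does not set this class apart. The higher genes were Hspa8 and Hsp90ab1. Hspa8 (Hsc70, chr9:40800984-40805200), the constitutive Hsp70, had 54.7, 53.1, 67.7, 72.2 and 59.8 RPKM in germ-free mice. Humanized mice had a lowest value of 76.0, a median of 90.6 and a highest value of 134 RPKM. The groups did not overlap, although the gap between 72.2 and 76.0 was small, and humanized mouse 1 was the highest. The LFC was 0.65 ± 0.14 (FDR = 0.000158), and Hspa8 was also called with total counts (LFC 0.46, FDR = 0.00349) but not with epithelial scaling (0.41, FDR = 0.0326).

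Hsp90ab1, the constitutive Hsp90, was the most abundant of the 88 genes. It had 252, 205, 276, 233 and 249 RPKM in germ-free mice, and 252, 319 and 371 RPKM as the lowest, median and highest in humanized mice. Humanized mouse 5 lay within the germ-free range and the other 5 above it. The LFC was 0.39 ± 0.11 (FDR = 0.00379), and the call was lost in 5 of the 11 fits with 1 mouse left out, namely without germ-free mouse 2, 4 or 5 or humanized mouse 1 or 2.

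Hspa1a, Hspa1b, Dnajb1 and Hsp90aa1 encode the cytosolic Hsp70, J protein and Hsp90 forms that heat is known to induce. Of these, 0 of 4 were called by the exact test, with LFC between −0.13 and 0.43 and a lowest FDR of 0.0708. Of all tested genes 19.3% were called, so 4 genes are too few to set this group apart. Only genes with inducible in their assigned role were counted, so other members that heat may induce are not covered. Of the genes holding a heat shock element, Hspd1 and Hspe1 were called higher, and Dnajb6 and Hsph1 were not called. Hspa1a had 3.70 ± 0.753 and 3.49 ± 0.745 RPKM and Hspa1b had 5.63 ± 1.27 and 5.14 ± 1.05 RPKM. These genes are near-identical copies, so their reads may be split between them. Dnajb1 had 20.4 ± 2.85 and 20.4 ± 2.34 RPKM, an LFC of 0.00 ± 0.10. Hsph1, an Hsp110-type exchange factor, had the highest LFC among genes not called, 0.64 ± 0.27 (FDR = 0.0648). Hspa2, an Hsp70 known from testis, fell from 1.53 ± 0.132 to 0.941 ± 0.248 RPKM (LFC −0.70 ± 0.20, FDR = 0.00881), a call that was lost without any one of 8 mice.

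The small heat shock proteins had the lowest median LFC of the classes: 4 of 6 genes were lower, 0 were higher and the median LFC was −1.21 (−1.39 with total counts and −1.44 with epithelial scaling). Without Hspb2, which met the read minimum only through the germ-free mice, 3 of 5 were lower with a median of −1.11, and 7 of the 87 other genes in all were lower, with LFC between −1.42 and −0.42. Hspb1 (Hsp25, chr5:135887919-135889563) had 4.55, 4.84, 7.07, 10.3 and 4.66 RPKM in germ-free mice, and 0.592, 2.66 and 3.64 RPKM as the lowest, median and highest in humanized mice. The groups did not overlap, germ-free mouse 4 was the highest and humanized mouse 5 the lowest. The LFC was −1.33 ± 0.37 (FDR = 0.00361), from 6.29 ± 2.48 to 2.49 ± 1.12 RPKM. The call was lost without germ-free mouse 3 or 4 or humanized mouse 1 and by the quasi-likelihood test (FDR = 0.0190).

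Hspb8 (Hsp22), which works with the co-chaperone Bag3, had 4.25, 3.74, 4.53, 8.87 and 4.87 RPKM in germ-free mice and 0.874, 2.13 and 3.55 RPKM as the lowest, median and highest in humanized mice. Again germ-free mouse 4 and humanized mouse 5 were at the ends and the groups did not overlap. The LFC was −1.32 ± 0.31 (FDR = 0.000424), and the call held in the same 21 fits and with an absolute LFC above 1. Bag3 itself had an LFC of −0.02 ± 0.10 (FDR = 0.945). Hspb7, known from heart and muscle, had 1.66, 1.55, 2.33, 2.61 and 1.57 RPKM in germ-free mice and 0.316, 0.929 and 1.35 RPKM as the lowest, median and highest in humanized mice. Here humanized mouse 4 was the lowest, and the groups did not overlap (LFC −1.11 ± 0.31, FDR = 0.00453). The call of Hspb7 was lost without germ-free mouse 3 or 4 or humanized mouse 1 or 2 and by the quasi-likelihood test (FDR = 0.0194).

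Hspb2 (chr9:50751072-50752354), known from muscle, had the lowest LFC of the 88 genes and rested on few reads. Germ-free mice had 0.566, 0.591, 0.712, 0.744 and 0.579 RPKM, and humanized mice ranged from 0 to 0.337 RPKM with a median of 0.133. These were 26 to 39 reads per germ-free mouse and 0 to 14 per humanized mouse, with 0 in humanized mice 2 and 5, where a count of 0 allows up to 3 reads. At least 10 reads were found in 5 germ-free but only 2 humanized mice, so Hspb2 met the read minimum through the group where it was high. The LFC was −2.00 ± 0.61 (FDR = 0.00422), and the call was lost in 6 of the 11 fits with 1 mouse left out, by the quasi-likelihood test and by DESeq2. In a GENCODE annotation of GRCm38, 30.2% of its exonic bases overlap Cryab on the opposite strand, and the TruSeq v2 kit does not mark strand, so reads of these genes cannot be told apart there. Cryab, a small heat shock protein gene outside the symbol rule, fell from 6.35 ± 2.38 to 1.69 ± 0.880 RPKM (LFC −1.90 ± 0.36, FDR = 7.58e-06).

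The other small heat shock proteins were not called. Hspb6 (Hsp20), known from smooth muscle, had 3.87 ± 0.785 and 2.99 ± 0.498 RPKM (LFC −0.37, FDR = 0.117). Hspb9, known from testis, had 4 to 14 reads per mouse (FDR = 0.627). The 4 called small heat shock protein genes were lower, as the smooth muscle markers were (median LFC −1.98). Hspb6 had an LFC of only −0.37 and Hspb9 of 0.33. Other markers were lower too: 6 of 8 fibroblast markers were called (summed RPKM 241 to 394 germ-free, 27.3 to 199 humanized), and 8 of 8 endothelial markers had an LFC below 0 with 0 called by the exact test, 7 of them at an unadjusted p below 0.05, as were 37.4% of all tested genes (summed RPKM 21.7 to 25.7 against 3.12 to 20.3). Both sums were highest in germ-free mouse 4 and lowest in humanized mouse 5. The median log2 deviation of the 6 genes from the germ-free mean was −1.26, −1.09, −0.67, −0.98, −2.07 and −0.49 in humanized mice 1 to 6. The summed smooth muscle markers of the same mice were 108, 136, 166, 178, 63.6 and 424 RPKM. Mouse 5 was the lowest and mouse 6 the highest in both. In germ-free mice the sums were 427, 539, 682, 1196 and 513 RPKM, and mouse 4 was the highest, as it was for Hspb1, Hspb2, Hspb7 and Hspb8. All 12 smooth muscle markers were lower (LFC of Cnn1 −2.41, Actg2 −2.34, Des −2.13, Myl9 −2.07), and the part of muscle, fibroblast or endothelial content in these values was not tested. Without germ-free mouse 3 or 4 or humanized mouse 1 only 1 of the 6 genes was called.

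**Figure D4:**
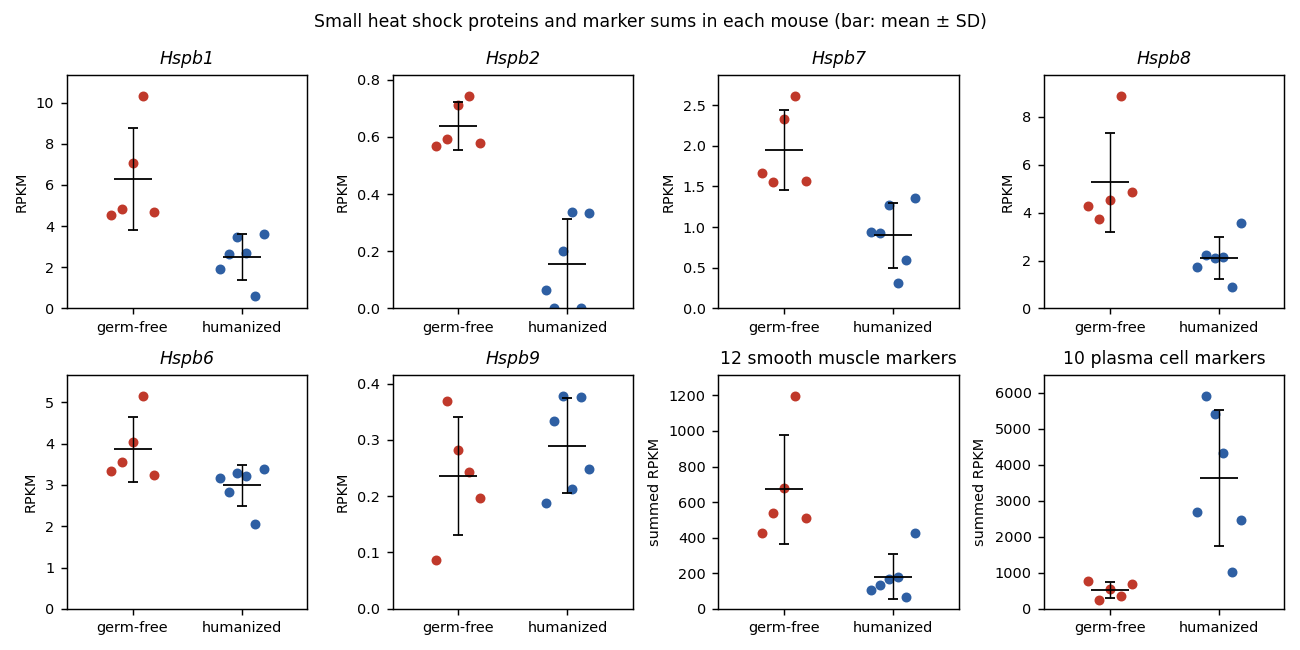
RPKM of the 6 small heat shock protein genes and the summed RPKM of 12 smooth muscle and 10 plasma cell markers (y axes, TMM scaling) in each germ-free (red, n = 5) and humanized (blue, n = 6) mouse, with bars at mean ± SD. Hspb1, Hspb2, Hspb7 and Hspb8 are lower in humanized mice without overlap, as are the smooth muscle markers (427 to 1196 against 63.6 to 424 RPKM), while Hspb6 and Hspb9 overlap.

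The J proteins of the cytosol and nucleus, which hand clients to Hsp70, had 1 of 20 higher and 2 lower (median LFC 0.04). The called share, 15%, was below the 19.3% of all tested genes, so the count does not set this class apart. Dnajb5 (chr4:42949814-42959425) had 1.61, 1.92, 2.04, 2.87 and 1.79 RPKM in germ-free mice and 0.624, 0.994 and 1.40 RPKM as the lowest, median and highest in humanized mice. The groups did not overlap, and germ-free mouse 4 and humanized mouse 5 were again at the ends. The LFC was −1.05 ± 0.20 (FDR = 3.15e-05). Dnajb4, of the same subfamily, fell from 6.97 ± 0.711 to 5.21 ± 0.494 RPKM (LFC −0.42 ± 0.08, FDR = 0.000334), and the calls of both genes held without any one mouse.

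Dnajc7, which binds Hsp70 and Hsp90 together, had an LFC of 0.23 ± 0.04 (FDR = 0.00196), from 22.0 ± 0.0952 to 25.8 ± 1.03 RPKM. With epithelial scaling, which moved the median of all genes to −0.23, its LFC was −0.0089 (FDR = 0.964). Dnaja2, the most abundant of this class, had 54.3 ± 3.91 and 65.3 ± 6.24 RPKM and missed the threshold (FDR = 0.0124), and Dnajc8 of the spliceosome had 23.0 ± 0.846 and 25.0 ± 1.32 RPKM (FDR = 0.171). The other 15 were not called, among them Dnajb7 (LFC −0.62 ± 0.18, FDR = 0.0140), which did not overlap between the groups and was called lower with total counts.

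Dnajc6 (auxilin), which uncoats clathrin vesicles and is known from neurons, was the 1 called gene of 3 in vesicles and endosomes. It had 0.263, 0.155, 0.191, 0.214 and 0.148 RPKM in germ-free mice, and 0.0214, 0.0560 and 0.155 RPKM as the lowest, median and highest in humanized mice. Only humanized mouse 2 lay within the germ-free range. The LFC was −1.42 ± 0.41 (FDR = 0.00417), on 48 to 98 reads per germ-free and 6 to 34 per humanized mouse, and the call was lost in 6 of the 11 fits with 1 mouse left out. Of 9 enteric neuron and glia markers 8 were lower (summed RPKM 8.50 to 11.9 germ-free, 1.29 to 3.83 humanized), and their part in this value was not tested.

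Dnajc5, the cysteine string protein of secretory vesicles and the most abundant of these 3 genes, had 24.0, 25.2, 23.0, 22.7 and 23.5 RPKM in germ-free mice. Humanized mice ranged from 19.7 to 25.5 with a median of 21.5 RPKM. Humanized mouse 5 was the highest of all mice, and the other 5 humanized mice lay below the germ-free mice. The difference was not called with TMM (LFC −0.13 ± 0.07, FDR = 0.243) but was called lower with total counts (−0.32, FDR = 0.000139). Dnajc13 of endosomes was not called (LFC 0.02 ± 0.06, FDR = 0.887).

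Among the 8 genes with no assigned compartment, Hspb11 was higher and the others were not called. Despite its name, Hspb11 encodes Ift25, a protein of intraflagellar transport. It had 2.88, 3.91, 3.29, 3.21 and 3.82 RPKM in germ-free mice and 4.43, 4.85 and 5.97 RPKM as the lowest, median and highest in humanized mice. All 6 humanized mice lay above the germ-free mice, with mouse 5 the highest (LFC 0.58 ± 0.12, FDR = 0.000854, and FDR = 0.0280 with total counts). Dnajc22, a membrane J protein and the most abundant of these 8, had 33.1, 36.5, 33.5, 33.1 and 36.0 RPKM in germ-free mice and 33.2, 36.7 and 43.7 RPKM as the lowest, median and highest in humanized mice. The groups overlapped (LFC 0.12 ± 0.07, FDR = 0.316). Dnajc4 had 18.5 ± 0.864 and 19.6 ± 2.55 RPKM (FDR = 0.667), and the rows Cct8l1 (FDR = 0.390), Dnajc19-ps (FDR = 0.553) and Hspa9-ps1 held few reads.

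The partners of these chaperones were counted from lists of genes in the same pathways. Of 28 Hsp70 and Hsp90 co-chaperones, 5 were higher and 1 lower (median LFC 0.16). The called share, 21.4%, was near the 19.3% of all tested genes, as were those of mitochondrial protein quality control (21.4%) and of the calnexin cycle and ER-associated degradation (22.7%) below, so these counts do not set the lists apart. The higher ones included Grpel2 and Grpel1, exchange factors of the mitochondrial Hsp70 (LFC 0.69 ± 0.11 and 0.39 ± 0.06), and Stip1 (Hop) and Ahsa1, which serve Hsp90 (0.55 ± 0.17 and 0.45 ± 0.09). Fkbp5, an Hsp90 partner known as a glucocorticoid target, fell from 45.8 ± 6.00 to 34.7 ± 3.65 RPKM (LFC −0.40 ± 0.10). Of 14 genes of mitochondrial protein quality control, 3 were higher (Htra2, Yme1l1 and Timm44, LFC 0.33 to 0.39) and 0 lower.

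Of 18 other ER oxidoreductases, 5 were higher and 3 lower (44.4% called). P4hb, which encodes PDI itself and carries no Pdia symbol, rose from 202 ± 5.72 to 259 ± 28.5 RPKM (LFC 0.36 ± 0.08, FDR = 0.000294). Ero1l, which oxidizes PDI, had an LFC of 0.44 ± 0.08, and Agr3 fell (LFC −1.30 ± 0.24, at under 1 RPKM). Of 22 genes of the calnexin cycle and ER-associated degradation, 5 were higher and 0 lower. Derl3, a member also of the plasma cell list, had an LFC of 2.28 ± 0.45, and the other 4 (Selk, Edem2, Prkcsh and Ganab) lay between 0.24 and 0.32.

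Of 21 genes of the unfolded protein response, the signalling by which cells raise ER chaperones, 6 were higher and 0 lower. Of these 6, Hspa5, Hsp90b1 and Dnajb9 are among the 88 genes counted above, and of the other 18 genes of the list 3 were higher and 0 lower (16.7% called, below the share of all tested genes). The other 3 were Xbp1 (60.1 ± 4.46 to 90.9 ± 13.6 RPKM, LFC 0.60 ± 0.10, FDR = 1.52e-06), which is a plasma cell marker as well, and Sec61b and Sec61a1 of the translocon (LFC 0.49 ± 0.09 and 0.35 ± 0.08). Atf4 (FDR = 0.340), Ddit3 (FDR = 0.0524), Ern1 (FDR = 0.179) and Ppp1r15a (FDR = 0.875) were not called. The heat shock factors Hsf1, Hsf2 and Hsf4 were not called (FDR = 0.490, 0.0892 and 0.833).

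**Figure D5:**
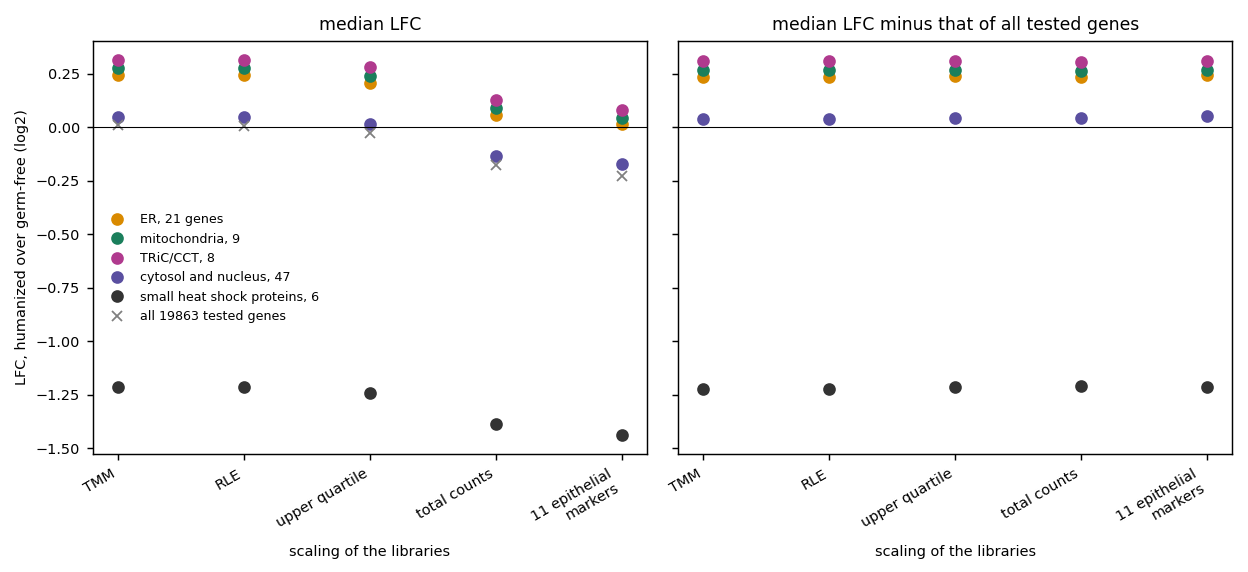
Median LFC of humanized over germ-free mice (y axis, log2) for ER, mitochondrial, TRiC/CCT, cytosol and nucleus, and small heat shock protein genes under 5 scalings of the libraries (x axis), as fitted (left) and minus the median of all 19863 tested genes (right). As fitted, the ER median falls from 0.24 with TMM to 0.016 with epithelial scaling. That of the cytosol and nucleus turns from 0.05 to −0.17. A scaling moves all genes by nearly the same amount, so the right panel cannot test whether a class keeps its place.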

How the data were processed

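The authors sequenced colonic polyA RNA from TruSeq v2 libraries in 101 bp paired-end reads on a HiSeq-3000. Their processing notes name bcl2fastq 2.17.1.14, TopHat2 2.1.0, Bowtie2 2.2.3, Subread 1.4.6-p5 with featureCounts, and the build mm10. The strand setting is not given in the sources used here. The deposited table holds raw counts per gene, without normalization, for 43346 genes in 11 mice, with each gene's position and a length whose derivation is not stated.

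From these counts, a low-count filter (filterByExpr with default settings: count of 10, total of 15, large group size 10, proportion 0.7) kept 19863 genes. As in the study's methods, libraries were TMM-normalized and compared by the exact test of edgeR, with FDR after Benjamini–Hochberg (R 4.3.3, edgeR 4.0.16, limma 3.58.1), and genes at FDR below 0.01 were called. RPKM used the deposited lengths. Alternatives were edgeR's quasi-likelihood test, DESeq2 1.42.0, 4 other scalings, 2 other filters, 2 other thresholds, each mouse left out, a replicate block, and the ER without membrane J proteins. A fit of mice 1 to 5 without the block, counts without Hspb2, and a list count without members, were added after seeing the data.

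The members, compartments and gene lists were chosen with earlier results of these data known. Every called member is named. The 6 called members of highest LFC, the 6 of lowest LFC and the most abundant of each compartment are given with each germ-free mouse and the range and median of the humanized mice. The 2 most abundant of each class are named, and of each other list up to 4 called genes with the largest absolute LFC. Further genes in the text were picked with their values in view. Counts simulated for 19863 genes with known changes in 200 (5 against 6 samples) tested the script. At a log2 change of 0.5, the exact test found 25 of 67, at 1 it found 49 of 67 and at 2 it found 62 of 66. It made 11 false calls in all, and the quasi-likelihood test made 2. Each simulated gene had the same dispersion in both groups. In the data, 80.2% of all tested genes had a larger coefficient of variation in humanized mice, so the simulation does not cover that case. No 2 libraries held the same values. The replicate numbers name different animals and were not treated as pairs. All mice were used. Protein sequences and reads were not analysed here.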

Additional observations from a re-analysis of the deposited data

Results flagged for a closer look

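The 41 members that were called or were among the 2 most abundant of their class were checked in each group for a mouse far from the others by Dixon's ratio. Of the 82 sets of values, 8 held one, where chance gives about 1 in 20. Hspb8 was highest in germ-free mouse 4, at 8.87 RPKM against 4.87 in the next mouse, and the summed smooth muscle markers were also highest there (1196 RPKM, next 682). In the same mouse Dnajc10 was lowest, at 40.9 RPKM (next 47.6). Humanized mouse 5 had the lowest Hspa2 of its group, 0.468 RPKM (next 0.886), and the highest Dnajc5, 25.5 RPKM (next 21.6). Cct4 was lowest in humanized mouse 3, at 36.4 RPKM (next 43.7), and Cct7 in germ-free mouse 1, at 47.6 RPKM (next 51.0). Dnajc8 was lowest in germ-free mouse 3, at 21.5 RPKM (next 23.1). For Dnajc7 the germ-free mice lay so close together that mouse 2, at 21.9 RPKM, was flagged beside a next value of 22.0. No cause of these values was tested.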

How the results depend on the processing

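Canx and Hspb8 kept their calls in 21 other fits at FDR below 0.01. Total counts gave 3 members higher, with 773 genes higher and 3609 lower in the whole table (17.6% of calls higher, 47.8% with TMM), and median LFC of 0.058 for ER, 0.088 for mitochondrial and −0.13 for cytosolic and nuclear members. Epithelial scaling gave 1 member higher, 548 genes higher and 3099 lower (15.03% higher), and medians of 0.016, 0.041 and −0.17. Dnajc7 had an LFC of −0.0089 there, where the median of all genes was −0.23. The cause was not tested beyond the shift of all genes given in the report. The quasi-likelihood test gave 3 members and 1298 genes lower. At FDR below 0.05, 2780 genes were higher. With an absolute LFC above 1, 0 members were higher by the exact test, and 405 genes were higher and 1273 lower (24.1% higher). Without membrane J proteins the ER median was 0.42.

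Leaving out each mouse gave 13 to 27 members higher and 3 to 9 lower, 1336 to 2088 genes higher and 1486 to 2323 lower, and medians of 0.19 to 0.28 for ER, 0.25 to 0.31 for mitochondrial and 0.01 to 0.10 for cytosolic and nuclear members. From 21 higher and 8 lower, both counts fell by more than 1.5 times without germ-free mouse 1 (13 and 5) or humanized mouse 1 (13 and 3), and the lower count without germ-free mouse 3 (14 and 3) or 4 (15 and 3). Of the 29 calls, 11 higher and 3 lower held in every such fit.

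With the replicate block over mice 1 to 5 (quasi-likelihood), 2 members were higher and 1 lower, with 501 genes higher and 501 lower. The same mice without the block gave 7 members higher and 3 lower, and 1032 and 1046 genes. Deviations of same-numbered mice correlated at r = −0.05, −0.13, 0.09, 0.09 and −0.07 across genes. Such correlations cannot exclude a shared preparation or sequencing lane, which the labels and methods do not name.

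Depth limits the rarest members: Hspb2, Hspb9, Pdia2, Dnajc6 and Hspa9-ps1 had under 10 reads in at least 1 mouse.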
